A study of Homo sapiens with 12 samples.

Results

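Activation of MycER by 4-hydroxytamoxifen (OHT) was followed here at the level of newly made RNA, in cells that carried a non-targeting shRNA (shNT) and so kept their own CDK12. The members are 6 of the 12 EU-seq libraries of the series, 3 of the shNT group and 3 of the shNT+OHT group, chosen by their labels. The cells are U2OS-MycER, a human osteosarcoma line carrying a Myc protein joined to a piece of the estrogen receptor that binds OHT, which holds Myc inactive until OHT is given. The labels do not say whether the line is 1 clone or how strongly MycER is expressed. Both groups received doxycycline at 1 µg/mL to induce the shRNA, were arrested with nocodazole at 100 ng/mL for 8 h, collected by mitotic shake-off and harvested 12 h after release, with 0.5 mM 5-ethynyl-uridine (EU) present for 2 h. The shNT+OHT group also received 300 nM OHT for 40 h, and the shNT group received none. The labels do not say whether the 3 replicates of a group came from separate cultures, so the p-values measure the spread between these libraries, which may in part be technical. The series has no OHT-treated cells that lack MycER, so an effect of MycER and an effect of OHT by itself cannot be told apart.

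Myc is a transcription factor that binds DNA together with its partner MAX, preferably at E-boxes, and the sequence CACGTG is its best known site. Its induced genes serve growth, among them genes for ribosome assembly, nucleotide and polyamine synthesis and translation, while genes of cell adhesion and growth arrest are often reported as repressed. In EU-seq, RNA made while EU is present is coupled to biotin, captured and sequenced, so the counts follow transcription within the pulse, together with processing and decay inside it, and not the stock of mature RNA. For each library 40 µg of human RNA was mixed with 10 µg of mouse RNA, but the count table has no mouse rows. All values below are therefore relative to the rest of the transcriptome of the same library, and a change in total RNA synthesis, or in the number of cells against RNA per cell, cannot be seen.

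The shNT libraries held 4314380, 5227279 and 1928373 counts and the shNT+OHT libraries 3297982, 1251695 and 3666406. Across the genes tested, Pearson r of log2 CPM (counts per 1000000 after scaling) was 0.973 to 0.984 within shNT, 0.918 to 0.959 within shNT+OHT and 0.897 to 0.939 between the groups, as a description across genes. The OHT-treated libraries were thus less alike than the controls, and replicate 1 stood farthest from replicate 2. The first principal component held 50.7% of the variance and separated the groups. The second held 25.01% and set shNT+OHT replicate 1 against replicate 2. The shallowest libraries, shNT replicate 3 and shNT+OHT replicate 2, also had most counts on MTRNR2L8, a nuclear gene copy that resembles mitochondrial 16S rRNA, with 47.7, 47.9 and 176 CPM in shNT and 28.1, 645 and 32.2 CPM in shNT+OHT. One such library lies in each group, and the counts of calls, the list medians and the fits of tested genes below were also computed without it. Comparisons were made on CPM after TMM scaling with edgeR's quasi-likelihood test, and a gene with a mean scaled count above 32 was tested and was called at a Benjamini-Hochberg adjusted p under 0.05 over all genes tested.

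The libraries carried the markers of a mesenchymal osteosarcoma line in part. VIM (vimentin) had 325, 313 and 311 CPM in shNT and 338, 331 and 299 CPM in shNT+OHT, COL1A1 had 148, 157 and 167 CPM in shNT and 106, 81.2 and 82.1 CPM in shNT+OHT and RUNX2, the transcription factor of the bone lineage, had 228, 222 and 190.2 CPM in shNT and 113, 144 and 141 CPM in shNT+OHT. Against that label COL1A2 stayed at or below 1.12 CPM, and TWIST1 had 0 counts in all 6 libraries, which allows up to 2.44 CPM in the shallowest. Of 14 epithelial markers 3 were tested and 0 called, and the list summed to 787, 731 and 737 CPM in shNT and 844, 684 and 825 CPM in shNT+OHT. Most of that sum came from the keratins KRT18, with 459.7, 409.9 and 401 CPM in shNT and 494, 347 and 456 CPM in shNT+OHT, and KRT8, with 277, 280.4 and 292 CPM in shNT and 314, 312 and 329 CPM in shNT+OHT. The defining markers EPCAM, KRT5, KRT14, ESRP1 and GRHL2 did not pass 2.47 CPM, KRT19 had 0 counts, and CDH1 had 10.8, 8.76 and 8.62 CPM in shNT and 7.40, 8.12 and 11.8 CPM in shNT+OHT. The 15 blood markers summed to between 21.3 and 38.2 CPM in a library, and the one tested, the lysosomal protein CD68, had 16.3, 18.8 and 23.3 CPM in shNT and 30.8, 18.7 and 12.6 CPM in shNT+OHT and was not called. The 10 endothelial markers summed to between 8.71 and 22.3 CPM, with ERG the most abundant, at up to 12.7 CPM, and 0 tested. Of the defining markers PTPRC, CD3E, PECAM1, CDH5, TEK and VWF stayed at or below 2.54 CPM in each library, and LYZ and HBB had 0 counts. The part of other cell types in the results was not tested.

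The endogenous MYC gene, which the transgene does not replace, had 2174, 1951 and 2037 CPM in shNT and 2165, 1679 and 1928 CPM in shNT+OHT. The groups overlapped (log2 fold change -0.09 ± 0.10, SE, edgeR adjusted p = 0.57). Its partner MAX had 113, 114 and 112 CPM in shNT and 167, 155 and 137 CPM in shNT+OHT and was 1.35-fold higher (log2 fold change 0.43 ± 0.13, SE, edgeR adjusted p = 0.035). CDK12, the kinase that other libraries of the series deplete, had 316, 276 and 304 CPM in shNT and 427, 351 and 387 CPM in shNT+OHT and was 1.304-fold higher (log2 fold change 0.38 ± 0.12, SE, edgeR adjusted p = 0.035). The calls on MAX and CDK12 were lost when any shNT library was left out, that on MAX also without the 2 shallowest libraries, and that on CDK12 without shNT+OHT replicate 3. Of 10 tested genes of the MYC and MAX network 3 rose and 1 fell (30% and 10%). The fall was in MXD4, an antagonist that competes for MAX (2.16-fold lower), and the other rises were in MXI1, a second such antagonist, and MLXIP, a glucose sensor, at log2 fold changes of 0.67 and 0.67. None of the 4, MAX included, was called without the 2 shallowest libraries or without shNT replicate 1 or 2. MXD4, at a mean of 22.7 CPM in shNT and 10.3 CPM in shNT+OHT, passed the filter on counts through the shNT group. The estrogen receptor gene ESR1 was not tested, with 0.688, 0.931 and 0 CPM in shNT and 0, 0.812 and 0.560 CPM in shNT+OHT. Among 6 tested genes known to follow estrogen receptor activity in breast cells, 2 rose and 1 fell (33.3% and 16.7%, against 9.37% and 8.54% of all genes). Those that rose were CA12, a carbonic anhydrase, and XBP1, a transcription factor of the unfolded protein response, at log2 fold changes of 1.87 and 0.68. RARA, a retinoic acid receptor, fell by 0.72 on the log2 scale. CA12, at a mean of 5.50 CPM in shNT and 20.9 CPM in shNT+OHT, passed the filter on counts through the OHT group. The shares of so few genes are a description. GREB1 and PGR, which answer to the receptor in those cells, had at most 29.3 and 1.68 CPM in any library.

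Of 9994 genes tested, 1789 (17.9%) were called, 936 of them higher with OHT (9.37%) and 853 lower (8.54%). In 1735 genes (17.4%) all 3 OHT libraries lay above all 3 controls, and in 1933 (19.3%) all lay below. Changes were mostly small. Of the genes called higher, 162 rose by less than 0.5 on the log2 scale, 602 by 0.5 to 1 and 172 by more, with a median of 0.69. Of those called lower, 97 fell by less than 0.5, 553 by 0.5 to 1 and 203 by more, with a median of 0.78. The number of calls depended on the libraries used. Leaving out shNT replicate 1, 2 or 3 left 761, 645 and 837 calls, leaving out shNT+OHT replicate 3 left 1072, and leaving out shNT+OHT replicate 1 or 2 gave 2530 and 2429. Without shNT replicate 3 and shNT+OHT replicate 2 together, the 2 shallowest, 1111 genes were called, 662 higher and 449 lower. Gene lists are described below by their counts of calls, and the percentages after a list's counts are of its tested members, beside the 9.37% higher and 8.54% lower of all genes. Outside the epithelial, blood and endothelial marker lists, edgeR called 0 members lower in 17 lists. DESeq2 also called 0 there, and at an unadjusted p under 0.05 at most 1 member of such a list was lower. Outside the same marker lists edgeR called 0 higher in 5 lists, and DESeq2 also called 0 in 4 of them. The exception, the p53 targets, is given with its values, and in the other 4 at most 2 members were higher at an unadjusted p under 0.05. A called gene named below was past the threshold in every alternative fit listed in the methods that tested it unless the text says otherwise, and a call said to be lost in some fits may have been lost in others too. Filters and left-out libraries kept some of the named genes out of 1 or more of the fits. Of the called genes 144 had a mean in 1 group below 10.8 CPM, the lowest mean of any gene tested, so they passed the filter through the other group. Those named are ADCYAP1R1, BOP1, CA12, CARD6, CEBPA, COL5A1, FGF21, HLF, IGSF9, INTS8, LAMC3, MMP13, MXD4, PDZRN3, SNORA10, SNORA51, SNORD38B, SORD, TFAP4 and TNFSF15, and their values are a description. Of the tested genes 5980 overlap another RefSeq gene. The use of strand in counting is not stated, so reads from such partners cannot be told apart, and where a partner bears on a named gene it is given.

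**Figure D1:**
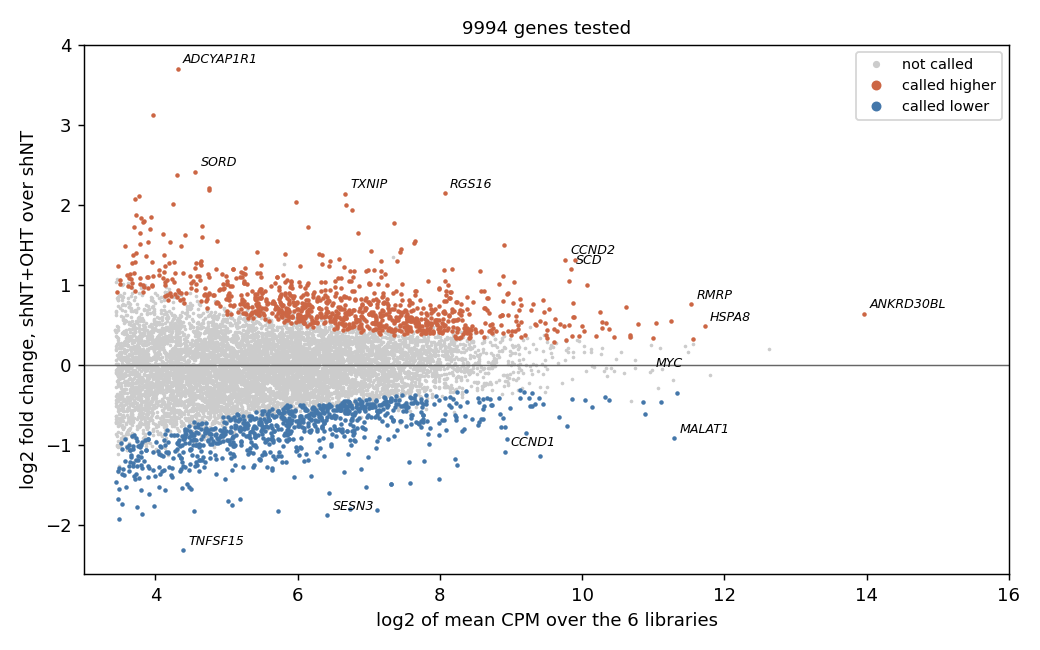
Each point is 1 of 9994 genes, with log2 of the mean CPM over the 6 libraries on the x axis and log2 fold change of shNT+OHT over shNT on the y axis. Orange points are the 936 genes called higher and blue points the 853 called lower, and MYC lies among the grey genes that were not called.

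The largest rises were in genes of unlike function. Among called genes with a mean of at least 20 CPM and no overlap between the groups, SORD, which oxidizes sorbitol to fructose, came first, with 6.42, 7.45 and 9.13 CPM in shNT and 55.8, 31.7 and 31.4 CPM in shNT+OHT. It was 5.35-fold higher (log2 fold change 2.42 ± 0.30, SE), but SORD has a near-identical pseudogene, and the split of reads between the copies is uncertain. RGS16, a brake on G-protein signalling, had 95.4, 97.6 and 103 CPM in shNT and 494, 410.0 and 407 CPM in shNT+OHT and was 4.44-fold higher (log2 fold change 2.15 ± 0.13, SE, edgeR adjusted p = 3.4e-07). TXNIP, an arrestin-like protein that lowers glucose uptake, had 38.1, 42.8 and 30.4 CPM in shNT and 168, 153 and 178 CPM in shNT+OHT, so every OHT library was well above every control. It was 4.42-fold higher (log2 fold change 2.14 ± 0.16, SE, edgeR adjusted p = 2.7e-06). OLIG2, a neural lineage transcription factor, and PEG3, an imprinted zinc-finger gene, were 4.10-fold higher and 4.01-fold higher. NR1D1, a repressor of the circadian clock, was 3.84-fold higher, GJA1, the gap junction protein connexin 43, 3.13-fold higher and SLC29A2, a nucleoside transporter, 3.30-fold higher. The others of the 12 largest rises were PDZRN3, IGSF9, ARSJ and DCAF4L1, at log2 fold changes of 2.21, 2.19, 1.77 and 1.73.

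The 12 largest falls were taken by the same rule. TNFSF15, a TNF-family ligand, had 42.0, 30.0 and 31.4 CPM in shNT and 4.94, 11.4 and 6.44 CPM in shNT+OHT. It was 4.99-fold lower (log2 fold change -2.32 ± 0.32, SE). SESN3, a sestrin that restrains mTORC1, had 133, 131 and 138 CPM in shNT and 32.1, 46.3 and 33.6 CPM in shNT+OHT, and the groups were far apart. It was 3.69-fold lower (log2 fold change -1.88 ± 0.17, SE, edgeR adjusted p = 1e-05). ARRDC3, of the same arrestin family as TXNIP, had 204, 209 and 234 CPM in shNT and 47.2, 73.9 and 65.5 CPM in shNT+OHT and was 3.52-fold lower (log2 fold change -1.82 ± 0.16, SE, edgeR adjusted p = 1e-05). PLAU, the urokinase-type plasminogen activator, had 169.9, 169 and 163 CPM in shNT and 55.2, 34.1 and 50.7 CPM in shNT+OHT and was 3.48-fold lower (log2 fold change -1.80 ± 0.17, SE, edgeR adjusted p = 1.2e-05). IGFBP5 binds insulin-like growth factors and TGM2 is a crosslinking transglutaminase, and they were 3.55-fold lower and 3.04-fold lower. CARD6, MN1, SLCO2A1, IL17RD, WNT5A and FIRRM completed the 12, with log2 fold changes from -1.83 to -1.53. FIRRM was not called without shNT replicate 1 or 2 or without shNT+OHT replicate 3.

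Genes that textbooks list as induced by Myc were for the most part called higher. Of 28 tested, 21 rose (75%, against 9.37% of all genes), 0 fell and the median was 0.64 (log2 fold change). Over all genes tested the median was -0.03. The median of the members in the OHT libraries lay 0.56, 0.64 and 0.71 above the shNT mean on the log2 scale. The count with 1 library left out lay between 14 (shNT replicate 2 out) and 23 (shNT+OHT replicate 2 out). NCL, the nucleolar protein nucleolin, had 503, 505 and 518 CPM in shNT and 921, 865 and 893 CPM in shNT+OHT, and each group was tight. It was 1.76-fold higher (log2 fold change 0.81 ± 0.10, SE, edgeR adjusted p = 9.8e-05), and it hosts small nucleolar RNAs in its introns. ODC1, the first enzyme of polyamine synthesis, had 489, 470.4 and 456 CPM in shNT and 705, 827 and 863 CPM in shNT+OHT and was 1.69-fold higher (log2 fold change 0.76 ± 0.11, SE, edgeR adjusted p = 0.00041). CCND2, a cyclin that drives the G1 phase, had 533, 485 and 468 CPM in shNT and 1209, 1275 and 1218 CPM in shNT+OHT and was 2.49-fold higher (log2 fold change 1.31 ± 0.10, SE, edgeR adjusted p = 2.7e-06). CAD, which starts pyrimidine synthesis, was 1.75-fold higher, PHB1, a mitochondrial prohibitin, 2.07-fold higher, and TFAP4, a transcription factor known as a direct Myc target, 2.89-fold higher at low counts. TERT, also on the list, was at or below 0.56 CPM in every library and was not tested.

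Genes listed as repressed by Myc did not move as one. Of 16 tested, 6 fell and 2 rose (37.5% and 12.5%), with a median of -0.18. With 1 library out the median ran from -0.31 (shNT+OHT replicate 3 out) to -0.07 (shNT+OHT replicate 2 out) and was -0.30, -0.31 and -0.26 without shNT replicate 1, 2 or 3, while the rises were 1 to 3 and the falls 6 or 7. The cyclin-dependent kinase inhibitor CDKN1A, the best known of them, had 2378, 2303 and 2168 CPM in shNT and 2518, 1948 and 2124 CPM in shNT+OHT, with groups that overlapped (log2 fold change -0.06 ± 0.10, SE, edgeR adjusted p = 0.75). CAV1, the caveolar coat protein, had 256, 248 and 196 CPM in shNT and 55.2, 112 and 89.3 CPM in shNT+OHT and was 2.81-fold lower (log2 fold change -1.49 ± 0.20, SE, edgeR adjusted p = 0.00027). PDGFRB, a receptor for platelet-derived growth factor, and NDRG1 were 2.32-fold lower and 1.58-fold lower. TXNIP, on the same list, rose as given above. CEBPA, a differentiation factor, was the other that rose (1.89-fold higher), and its call was lost with DESeq2, with upper-quartile scaling and without shNT replicate 3, among other settings.

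CACGTG was looked for in the 250 bases before the RefSeq gene start, where 1772 of 27305 promoters (6.49%) held it. The letters read the same on both strands. Of tested genes with a promoter sequence, 81 of 764 called higher held it (10.6%), 49 of 689 called lower (7.11%) and 624 of 6709 not called (9.30%). Among the textbook Myc-induced genes it was 8 of 23 (34.8%), among the nucleolar genes 9 of 56 (16.1%), and among the cytosolic ribosomal protein genes 3 of 62 (4.84%). The share was also high among lysosomal genes, 7 of 25 (28%), and chromatin genes, 8 of 38 (21.1%), lists in which 0 and 3 genes rose. Turned around, 10.7% of the 754 tested genes with the motif and 9.22% of the 7408 without it were called higher, and the motif in this window was held by few of the genes that rose. The promoters shown are the 5 that hold it among the 12 largest rises and the nucleolar genes that rose, because they put the motif beside genes whose new RNA increased. They are from RefSeq on GRCh38.p14, 5′ to 3′ on the gene's strand and ending at the base before the start, with CACGTG in capitals. The counts were made on hg19, and no position was carried over from them. In order they lie at chr1:159945614-159945863 (minus strand), chr1:43172571-43172820 (minus), chr2:130342647-130342896 (plus), chr19:45406394-45406643 (plus) and chr9:133336189-133336438 (minus).
IGSF9: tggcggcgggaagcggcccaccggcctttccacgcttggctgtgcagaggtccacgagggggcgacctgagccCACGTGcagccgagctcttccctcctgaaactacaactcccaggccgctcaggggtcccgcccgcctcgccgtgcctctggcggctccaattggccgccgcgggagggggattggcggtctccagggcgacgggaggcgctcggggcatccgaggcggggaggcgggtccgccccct
EBNA1BP2: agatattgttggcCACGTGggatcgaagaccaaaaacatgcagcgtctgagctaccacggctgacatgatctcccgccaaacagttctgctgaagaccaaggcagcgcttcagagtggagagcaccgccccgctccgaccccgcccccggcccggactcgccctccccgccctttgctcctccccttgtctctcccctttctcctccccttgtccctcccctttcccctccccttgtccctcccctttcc
IMP4: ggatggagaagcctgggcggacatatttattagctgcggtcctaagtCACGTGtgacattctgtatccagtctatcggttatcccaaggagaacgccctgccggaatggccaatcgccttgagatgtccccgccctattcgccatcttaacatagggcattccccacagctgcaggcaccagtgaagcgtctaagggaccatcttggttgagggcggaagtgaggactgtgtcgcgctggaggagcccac
POLR1G: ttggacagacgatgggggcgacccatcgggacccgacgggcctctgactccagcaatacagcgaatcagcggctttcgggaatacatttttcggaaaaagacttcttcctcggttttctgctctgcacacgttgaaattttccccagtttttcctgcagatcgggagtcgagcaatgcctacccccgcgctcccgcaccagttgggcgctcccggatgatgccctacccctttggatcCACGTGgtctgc
SURF6: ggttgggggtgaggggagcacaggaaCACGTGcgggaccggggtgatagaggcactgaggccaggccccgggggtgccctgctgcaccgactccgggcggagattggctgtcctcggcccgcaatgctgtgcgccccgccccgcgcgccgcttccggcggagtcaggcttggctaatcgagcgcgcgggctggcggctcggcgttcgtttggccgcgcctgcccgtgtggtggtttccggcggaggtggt
In POLR1G, a subunit of RNA polymerase I, the motif ends 6 bases before the start. In IGSF9, an adhesion protein of the immunoglobulin family, EBNA1BP2, IMP4 and SURF6 it ends 171, 231, 197 and 218 bases before it. Log2 fold changes were 2.19 for IGSF9, 1.41 for EBNA1BP2, 0.99 for IMP4, 0.82 for POLR1G and 0.65 for SURF6. EBNA1BP2, IMP4 and SURF6 serve the assembly of ribosomal subunits. The call on SURF6 was lost without shNT replicate 1 or 2 and with the length trend removed.

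Genes for making ribosomes had many rises and no falls. Of 67 tested nucleolar factors, which process ribosomal RNA and assemble the subunits, 31 rose (46.3%, against 9.37% of all genes), 0 fell and 66 had a positive fold change, with a median of 0.42. Their median in the OHT libraries lay 0.47, 0.52 and 0.45 above the shNT mean. With 1 library left out, between 19 (shNT replicate 2 out) and 42 (shNT+OHT replicate 1 out) rose. EBNA1BP2 had 95.4, 94.8 and 94.3 CPM in shNT and 266, 227 and 262 CPM in shNT+OHT and was 2.66-fold higher (log2 fold change 1.41 ± 0.12, SE, edgeR adjusted p = 8.9e-06). NOP16 had 97.4, 102 and 92.8 CPM in shNT and 267, 209 and 239 CPM in shNT+OHT and was 2.46-fold higher (log2 fold change 1.296 ± 0.13, SE, edgeR adjusted p = 2.3e-05). BOP1, of the PeBoW complex, was 2.35-fold higher at low counts, a call lost without shNT replicate 2 or 3 and without the 2 shallowest libraries. DDX21, a helicase of rRNA processing and among the members with most counts, had 756, 786 and 815 CPM in shNT and 805, 1203 and 887 CPM in shNT+OHT, where shNT+OHT replicate 2 stood alone, and was not called (log2 fold change 0.29 ± 0.13, SE, edgeR adjusted p = 0.13). WDR74 had 2369.8, 2806 and 2488 CPM in shNT and 2223, 2837 and 3959 CPM in shNT+OHT and overlaps the U2 small nuclear RNA gene RNU2-2, whose reads may make up its counts.

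Subunits and factors of RNA polymerases I and III, which make ribosomal RNA, 5S RNA and transfer RNA, had rises as well. Of 33 tested, 9 rose and 0 fell (27.3% and 0%), with a median of 0.37. OHT libraries lay 0.29, 0.30 and 0.31 above the shNT mean. POLR1E of RNA polymerase I was 1.84-fold higher and POLR1C, shared by RNA polymerases I and III, 1.74-fold higher. GTF3C4, a subunit of the factor that binds transfer RNA genes, was 1.44-fold higher. With 1 library left out the count lay between 4 (shNT replicate 2 out) and 11 (shNT+OHT replicate 2 out), and with the trend in gene length removed the median was 0.24.

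Among the cytosolic ribosomal protein genes, which make up the ribosome itself, there were also rises and no falls. Of 77 tested, 34 rose (44.2%), 0 fell, and in 51 (66.2%, against 17.4% of all genes) all OHT libraries lay above all controls, with a median of 0.39. The OHT libraries lay 0.41, 0.26 and 0.54 above the shNT mean, with the shallow replicate 2 lowest. RPL8 had 401, 409 and 404 CPM in shNT and 783, 647 and 711 CPM in shNT+OHT and was 1.76-fold higher (log2 fold change 0.82 ± 0.11, SE, edgeR adjusted p = 0.00019). RPL4 had 778, 758 and 716 CPM in shNT and 1047, 1024 and 1099 CPM in shNT+OHT and was 1.41-fold higher (log2 fold change 0.49 ± 0.09, SE, edgeR adjusted p = 0.003). RPL35 was 1.94-fold higher. These genes are short, and with the trend in gene length removed from each library 11 rose and the median was 0.19. The count lay between 13 (shNT replicate 2 out) and 50 (shNT+OHT replicate 2 out) when 1 library was dropped. Ribosomal protein genes have many processed pseudogenes, and how reads were shared among copies is not known.

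In the mitochondrial ribosome, 15 of 69 protein genes rose and 0 fell (21.7% and 0%), with a median of 0.31. MRPS26 and MRPS17, of the small subunit, were 1.98-fold higher and 1.90-fold higher. Length-trend removal left 9 and a median of 0.15, and leaving out 1 library gave between 4 (shNT replicate 2 out) and 23 (shNT+OHT replicate 2 out). Of 43 translation factors, 12 rose and 0 fell (27.9% and 0%), with a median of 0.30. EIF4EBP1, the inhibitor of cap binding that mTORC1 switches off, was 2.04-fold higher, EIF5A, which helps ribosomes through difficult peptide bonds, 1.94-fold higher, and the elongation factors EEF1B2 and EEF2 1.73-fold higher and 1.3998-fold higher. Without shNT replicate 2 or 3 the count was 5, without shNT+OHT replicate 1 or 2 it was 19 or 16, and with the length trend removed 7. Of 36 aminoacyl-tRNA synthetases, 6 rose and 1 fell (16.7% and 2.78%), the rises led by VARS1 (1.80-fold higher) and KARS1 (1.68-fold higher), and the rises lay between 2 (shNT replicate 1 out) and 10 (shNT+OHT replicate 2 out) with 1 library out. HARS2, the mitochondrial histidyl enzyme, was the one that fell (-0.55 on the log2 scale), a call lost without any one shNT library, without shNT+OHT replicate 3 and without the 2 shallowest libraries.

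**Figure D2:**
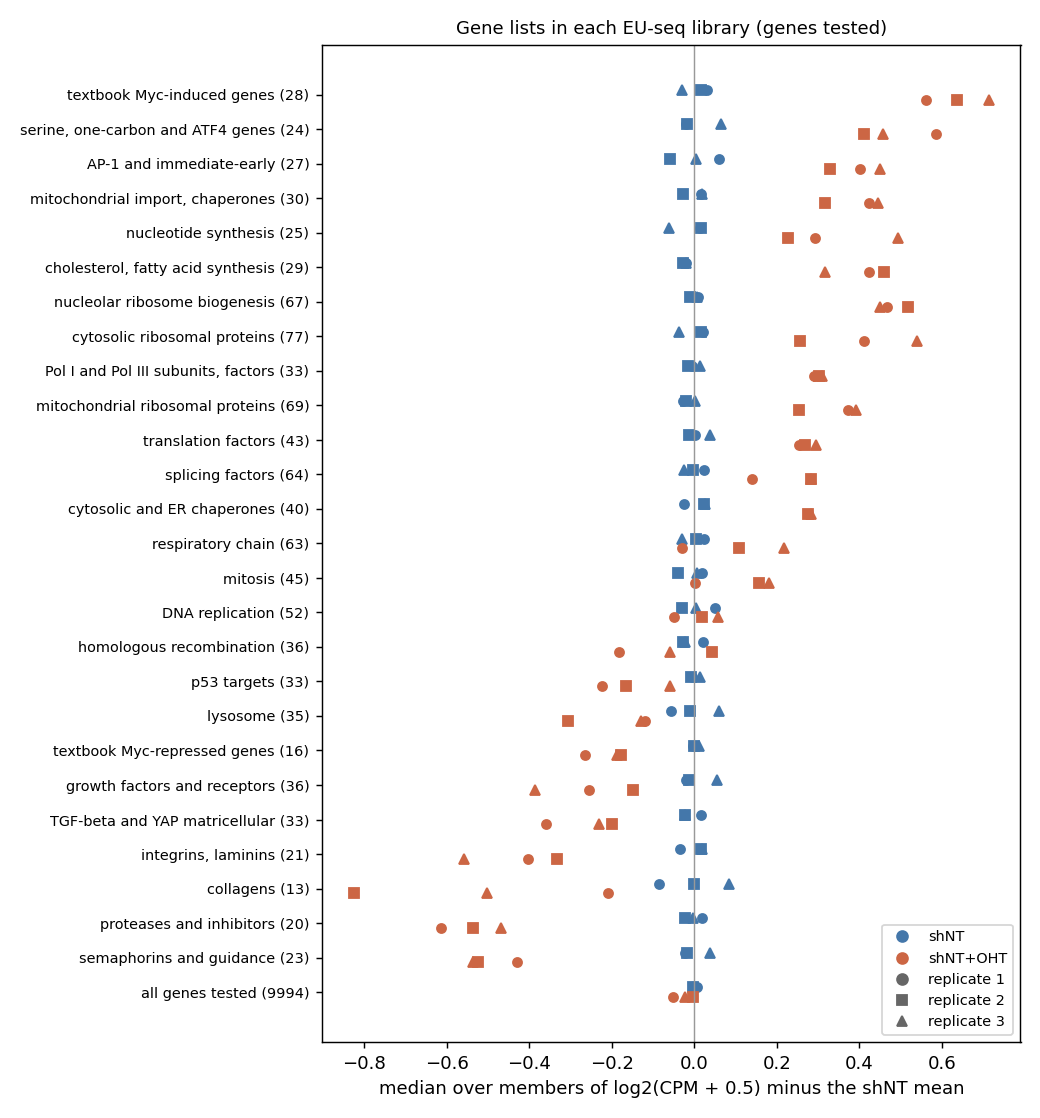
Each row is a gene list with the number of its genes tested, and each symbol is 1 library, placed at the median over members of log2(CPM + 0.5) minus the shNT mean. Blue symbols are shNT and orange symbols shNT+OHT, and the 3 orange symbols of the textbook Myc-induced genes lie from 0.56 to 0.71.

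Products of RNA polymerase III were among the RNAs that rose. RMRP, the RNA of the RNase MRP enzyme that cuts pre-rRNA, had 2173, 2319.7 and 2097 CPM in shNT and 3913, 3436 and 3809.5 CPM in shNT+OHT, and the groups were far apart for their spread. It was 1.69-fold higher (log2 fold change 0.76 ± 0.09, SE, edgeR adjusted p = 8.7e-05). RPPH1, the RNA of RNase P that trims transfer RNA precursors, had 619.5, 755 and 786 CPM in shNT and 1547, 1127 and 1625 CPM in shNT+OHT and was 1.99-fold higher (log2 fold change 1.00 ± 0.14, SE, edgeR adjusted p = 0.00027). The vault RNA VTRNA1-1 had 41.3, 35.6 and 68.0 CPM in shNT and 74.96, 68.2 and 108 CPM in shNT+OHT and was 1.81-fold higher (log2 fold change 0.85 ± 0.24, SE, edgeR adjusted p = 0.024). That call was lost without shNT replicate 1 or 2, without shNT+OHT replicate 3 and with the length trend removed. VTRNA1-3 had 142, 198 and 151 CPM in shNT and 157, 253 and 304 CPM in shNT+OHT and the groups overlapped (edgeR adjusted p = 0.08). VTRNA1-2 had 14.4, 10.1 and 27.9 CPM in shNT and 28.1, 20.3 and 34.2 CPM in shNT+OHT and the groups overlapped too (edgeR adjusted p = 0.13). The vault RNAs and the SNAR RNAs, also made by RNA polymerase III, were picked for their class after their values were seen. SNAR-G1 had 1.38, 1.304 and 1.01 CPM in shNT and 6.48, 8.93 and 12.3 CPM in shNT+OHT, below the filter on counts, and SNAR-D had 0.917, 0.745 and 2.03 CPM in shNT and 5.55, 8.93 and 8.40 CPM in shNT+OHT. These and SNAR-F did not overlap between the groups, SNAR-E, SNAR-I and SNAR-G2 did, and the other 8 of 14 SNAR rows had at most 0.186 CPM in any library. Members of this family are nearly identical in sequence and the values may be shared among them. The 7SK and 7SL genes were not analysed here.

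Of 56 small nucleolar RNA rows tested, 7 rose (12.5%, against 9.37% of all genes) and 0 fell, and the median of their log2 fold changes was 0.42. The OHT libraries were unlike, and lay 0.15, 0.33 and 0.63 above the shNT mean. DESeq2 also called 0 of the rows lower, and 2 were lower at an unadjusted p under 0.05 in edgeR. Those that rose were SNORA51, SNORA71A, SNORD38B, SNORA52, SNORD96A, SNORA5C and SNORA10, with log2 fold changes from 0.98 to 1.65, and all were named after their values were seen. SNORA51 and SNORA71A were past the threshold in every alternative that tested them, and the other 5 were lost in 1 or more fits without a library. They lie in introns of host genes, as SNORA51 does in NOP56, and in nascent RNA the counts on such a row may come from the host transcript. The 6 of 21 small nucleolar RNA host genes that rose (28.6%) included SNHG15 (2.00-fold higher) and SNHG17 (1.90-fold higher), and 0 fell. Their number lay between 2 (shNT replicate 2 out) and 7 (shNT+OHT replicate 1 out) with 1 library out, was 3 without the 2 shallowest and 2 with the length trend removed, where the median was -0.03. ANKRD30BL, the row with most counts in each library, had 11738, 11423 and 14226 CPM in shNT and 23835, 16465 and 18029 CPM in shNT+OHT and was 1.56-fold higher (log2 fold change 0.64 ± 0.12, SE, edgeR adjusted p = 0.0025). It overlaps the 5.8S rRNA pseudogene RNA5-8SP5, so its counts may hold ribosomal RNA and are not read as the gene.

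Among the amino acid and one-carbon genes of the stress factor ATF4 there were rises and no falls. Of 24 tested, 11 rose and 0 fell (45.8% and 0%), with a median of 0.48, and the OHT libraries lay 0.58, 0.41 and 0.46 above the shNT mean. ATF4 itself had 959, 955 and 933 CPM in shNT and 1585, 1329.8 and 1581 CPM in shNT+OHT and was 1.58-fold higher (log2 fold change 0.66 ± 0.10, SE, edgeR adjusted p = 0.00058). ATF3, a stress-induced repressor of the same family, had 267, 248 and 233 CPM in shNT and 653, 641 and 818 CPM in shNT+OHT and was 2.82-fold higher (log2 fold change 1.498 ± 0.12, SE, edgeR adjusted p = 4.4e-06). CHAC1, which breaks down glutathione, was 2.14-fold higher, and FGF21, a secreted metabolic hormone, 4.22-fold higher with 5.73, 5.78 and 3.04 CPM in shNT and 29.0, 17.05 and 17.9 CPM in shNT+OHT. SESN2, among the members with most counts, was not called (log2 fold change 0.35 ± 0.12, SE, edgeR adjusted p = 0.052). With 1 library left out between 8 (shNT replicate 1 out) and 13 (shNT+OHT replicate 2 out) rose.

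The same held for genes of cholesterol and fatty acid synthesis. Of 29 tested, 10 rose (34.5%), 0 fell and 28 had a positive fold change, with a median of 0.45 and OHT libraries at 0.42, 0.46 and 0.32. SCD, which puts the double bond into saturated fatty acids, had 573, 549 and 549 CPM in shNT and 1289, 1249 and 1298 CPM in shNT+OHT, with no overlap and little spread. It was 2.30-fold higher (log2 fold change 1.199 ± 0.09, SE, edgeR adjusted p = 2.8e-06). DHCR7, which carries out a last step to cholesterol, was 2.69-fold higher and FASN, fatty acid synthase, 1.80-fold higher. With 1 library left out the count lay between 6 (shNT replicate 1 out) and 15 (shNT+OHT replicate 1 out).

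In nucleotide synthesis 10 of 25 genes rose and 1 fell (40% and 4%), and the rises lay between 6 (shNT replicate 1 out) and 12 (shNT+OHT replicate 2 out) with 1 library out. IMPDH1, the rate-setting enzyme of guanine nucleotides, was 2.21-fold higher, and DHODH and CAD of the pyrimidine route 2.43-fold higher and 1.75-fold higher. RRM2, the ribonucleotide reductase subunit needed in S phase, fell by 0.46 on the log2 scale, a call lost without shNT replicate 1 or 2 and with the length trend removed. Of 13 polyamine genes ODC1 was the one called (7.69% higher, against 9.37% of all genes). Among 17 amino acid, nucleoside and monocarboxylate transporters 6 rose and 1 fell (35.3% and 5.88%). SLC16A1, which carries lactate, was 1.84-fold higher, SLC3A2, the heavy chain of amino acid exchangers, 1.59-fold higher and SLC29A1, a nucleoside transporter like SLC29A2, 2.19-fold higher. SLC20A1, a phosphate transporter, fell and was 1.69-fold lower.

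Glycolytic and hypoxia-responsive genes, which were not counted apart, were called in both directions. Of 28 tested, 7 rose and 3 fell (25% and 10.7%), with a median of 0.22 and rises between 4 (shNT replicate 3 out) and 10 (shNT+OHT replicate 1 out) with 1 library out. Without shNT+OHT replicate 1 the median was 0.14, and with the length trend removed it was 0.11. HK2, the hexokinase that commits glucose to the cell, had 118, 106 and 83.2 CPM in shNT and 323, 278 and 286 CPM in shNT+OHT and was 2.88-fold higher (log2 fold change 1.52 ± 0.14, SE, edgeR adjusted p = 1.2e-05). GPI and VEGFA, the latter a secreted target of the hypoxia response, were 1.77-fold higher and 1.87-fold higher. SLC2A3, a glucose transporter, had 311, 314 and 263 CPM in shNT and 167, 173 and 174 CPM in shNT+OHT and was 1.73-fold lower (log2 fold change -0.79 ± 0.12, SE, edgeR adjusted p = 0.00063), and NDRG1, another hypoxia-responsive gene, fell as given above.

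Within mitochondria, import and folding differed from respiration in their counts. Of 30 import and chaperone genes 11 rose and 0 fell (36.7% and 0%), with a median of 0.45. PHB1, GRPEL1, a helper of the import motor, and C1QBP were 2.07-fold higher, 1.81-fold higher and 1.78-fold higher. With the length trend removed 7 rose and the median was 0.26, and with 1 library left out the count lay between 4 (shNT replicate 2 out) and 17 (shNT+OHT replicate 1 out). There were 2 falls without shNT+OHT replicate 2 and 1 fall after thinning to the smallest total. Of 63 respiratory chain genes 4 rose and 1 fell (6.35% and 1.59%), against 9.37% and 8.54% over all genes, and the OHT libraries lay at -0.03, 0.11 and 0.22. The rises lay between 0 (shNT replicate 2 out) and 7 (shNT+OHT replicate 2 out) with 1 library out. The median of 0.16 was 0.01 with the length trend removed. Of 23 citric acid cycle genes 1 rose (4.35%, against 9.37% of all genes) and 0 fell, and 0 rose without any one shNT library. The difference between import and respiration was not tested.

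Chaperones of the cytosol and endoplasmic reticulum rose in 14 of 40 (35%) and fell in 0, with a median of 0.27 and OHT libraries at 0.28, 0.28 and 0.28. HSPA8, the constitutive HSP70, had 2801, 2882 and 2758 CPM in shNT and 3911, 3854 and 4051 CPM in shNT+OHT and was 1.3998-fold higher (log2 fold change 0.49 ± 0.08, SE, edgeR adjusted p = 0.0012). HSP90AB1 was 1.44-fold higher and PFDN2, of prefoldin, 2.08-fold higher. Leaving out 1 library gave between 7 (shNT replicate 1 out) and 18 (shNT+OHT replicate 1 out), and 1 fell without shNT+OHT replicate 2. With the length trend removed 9 of the chaperones rose and the median was 0.20. Splicing factors rose in 14 of 64 (21.9%) and fell in 0, with a median of 0.28. PRPF19, PRMT5, which methylates Sm proteins, and HNRNPF were 1.78-fold higher, 1.74-fold higher and 1.51-fold higher. That count lay between 4 (shNT replicate 1 out) and 24 (shNT+OHT replicate 1 out) and was 6 with the length trend removed. In nuclear transport 6 of 48 rose (12.5%, against 9.37% of all genes), among them RAN and its exchange factor RCC1 (1.78-fold higher and 1.57-fold higher), and 0 fell. The rises lay between 3 (shNT replicate 1 out) and 8 (shNT+OHT replicate 2 out) with 1 library out, 2 fell without shNT+OHT replicate 2, and the median of 0.08 was -0.03 without the 2 shallowest.

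Cyclins of the cell cycle were called in both directions. CCND2 rose as above, whereas CCND1, the cyclin that pairs with the same kinases, had 668, 669 and 639 CPM in shNT and 297, 340.2 and 296 CPM in shNT+OHT, so that every OHT library was under every control. It was 2.12-fold lower (log2 fold change -1.09 ± 0.11, SE, edgeR adjusted p = 1.8e-05). CCNE2, an S-phase cyclin, had 48.6, 42.1 and 55.3 CPM in shNT and 13.9, 17.05 and 26.0 CPM in shNT+OHT and was 2.49-fold lower (log2 fold change -1.32 ± 0.25, SE, edgeR adjusted p = 0.0028), and it overlaps INTS8 and NDUFAF6. Of 27 G1 cyclins, kinases and E2F genes 3 rose and 6 fell (11.1% and 22.2%, against 9.37% and 8.54% of all genes), and the falls lay between 3 (shNT replicate 1 out) and 6 (shNT+OHT replicate 1 out) with 1 library out. The calls on E2F4 and CDK4, which rose, and on RB1, the retinoblastoma gene, which fell, were lost in 3 or more of the fits that left out 1 library. Their log2 fold changes were 0.61, 0.49 and -0.98. Of 52 replication genes 5 rose and 1 fell (9.62% and 1.92%, against 9.37% and 8.54% of all genes), with OHT libraries at -0.05, 0.02 and 0.06 and rises between 0 (shNT replicate 2 out) and 7 (shNT+OHT replicate 2 out) with 1 library out. Of 45 mitotic genes 2 rose (4.44%) and 0 fell, and the rises lay between 0 (shNT replicate 2 out) and 7 (shNT+OHT replicate 2 out), with at most 1 fall. MKI67, a marker of cycling cells, had 1331, 1128 and 1063 CPM in shNT and 1386, 1102 and 1388 CPM in shNT+OHT and was not called (edgeR adjusted p = 0.43).

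Homologous recombination and DNA-damage signalling genes, of which 36 were tested, fell in 3 cases (8.33%, against 8.54% of all genes) and rose in 0. The 3 were ATM, BARD1 and BRCA1, at log2 fold changes of -0.77, -0.58 and -0.50, and each call was lost without any one shNT library and with the length trend removed. The call on BRCA1 was also lost with DESeq2, no filter, the replicate block, thinning, the 2 shallowest libraries out and shNT+OHT replicate 3 out. Without shNT+OHT replicate 1 or 2 the list had 2 and 1 rises, with 4 falls in each fit. Its median turned from -0.12 to 0.01 without replicate 1. With all 12 libraries in 1 fit it had 3 rises and 7 falls. Histone counts depended on the libraries. Of 31 tested 3 rose and 4 fell (9.68% and 12.9%), but 0 rose without any one shNT library, 13 rose without shNT+OHT replicate 2, and 0 rose and 8 fell with the length trend removed. The list lay at 0.23, -0.02 and 0.28 in the OHT libraries, and its median changed sign, from 0.16 to -0.13, with the length trend removed. H1-1, a linker histone, fell and was 1.72-fold lower. Histone copies are close in sequence, and how shared reads were counted is not known.

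In edgeR the genes listed here as p53 targets had more falls than rises. Other factors may also drive members of the list, and p53 activity itself was not tested. Of 33 tested edgeR called 0 higher and 9 lower (27.3%, against 8.54% of all genes), with a median of -0.15. Without shNT+OHT replicate 1 or 2 edgeR called 4 and 5 higher, with all 12 libraries in 1 fit 6, and without replicate 2 the median was -0.034. SESN3 is given above, TP53INP1, an autophagy and stress protein, had 303, 327 and 289 CPM in shNT and 126, 135 and 138 CPM in shNT+OHT and was 2.31-fold lower (log2 fold change -1.21 ± 0.12, SE, edgeR adjusted p = 1.8e-05), and CCNG2, a cyclin of resting cells, had 169, 156 and 178 CPM in shNT and 32.1, 96.6 and 80.9 CPM in shNT+OHT and was 2.47-fold lower. MDM2, the ubiquitin ligase of p53, had 1509.6, 1556 and 1520.5 CPM in shNT and 909.7, 1381 and 1107 CPM in shNT+OHT and was 1.35-fold lower, a call lost without any one shNT library or shNT+OHT replicate 3. CDKN1A was not called, as above. At an unadjusted p under 0.05 in edgeR 6 members were higher, and DESeq2 called 3 of them, SESN2, PLK3 and GADD45A, at log2 fold changes of 0.38, 0.37 and 0.32 (adjusted p = 0.028, 0.042 and 0.036). Counts of falls lay between 4 (shNT replicate 2 out) and 12 (shNT+OHT replicate 1 out).

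Immediate-early genes, which answer growth factors and stress within minutes, were called higher more often than lower. Of 27 tested 13 rose and 2 fell (48.1% and 7.41%), with a median of 0.46 and OHT libraries at 0.40, 0.33 and 0.45. Without any one shNT library 8 rose, and the highest count with 1 library out was 16. ATF3 led. KLF10, a TGF-beta early gene, had 2158, 1901 and 1886 CPM in shNT and 2693, 2854 and 3126 CPM in shNT+OHT and was 1.46-fold higher (log2 fold change 0.54 ± 0.09, SE, edgeR adjusted p = 0.0016). EGR1 had 1651, 1259 and 1467 CPM in shNT and 2047, 2059 and 2143 CPM in shNT+OHT and was 1.43-fold higher (log2 fold change 0.51 ± 0.10, SE, edgeR adjusted p = 0.0042), and JUND was 1.73-fold higher. Neither EGR1 nor JUND was called with the length trend removed, where 7 of the list rose and the median was 0.20. The falls were FOSL2, an AP-1 subunit (1.44-fold lower), and ZFP36L1, which drives decay of AU-rich RNAs (1.38-fold lower). Of 19 clock genes 3 rose (15.8%), NR1D1, HLF and TEF, and 4 fell (21.1%), among them BMAL2 and CLOCK. HLF and TEF are transcription factors of the clock's output, at log2 fold changes of 1.80 and 0.76. The calls on BMAL2 and CLOCK, at log2 fold changes of -0.85 and -0.52, were each lost without any one shNT library. Of the whole list 0 fell without any one shNT library, and 0 without the 2 shallowest libraries.

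**Figure D3:**
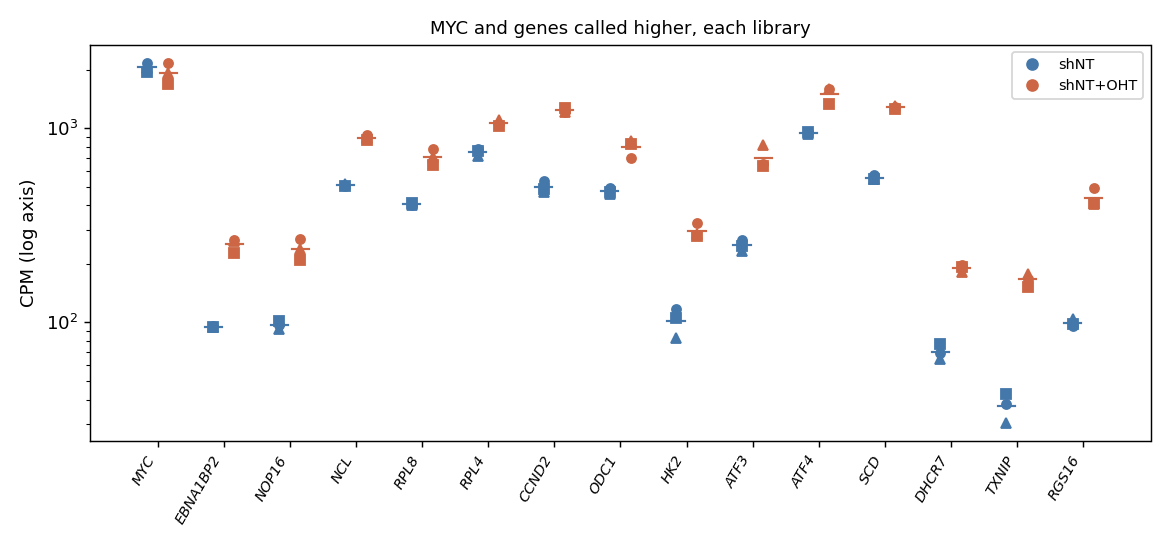
Each symbol is 1 library (circle, square and triangle for replicates 1, 2 and 3) on a log axis of CPM, blue for shNT and orange for shNT+OHT, with a line at each group's mean. MYC overlapped between the groups, and in the 14 other genes each OHT library lay above each control.

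Genes of the extracellular matrix and its remodelling had more falls than rises. Of 33 TGF-beta and YAP matricellular genes 12 fell and 1 rose (36.4% and 3.03%), with a median of -0.29 and OHT libraries at -0.36, -0.20 and -0.23. Fibronectin, FN1, had 642, 623 and 677 CPM in shNT and 387, 305 and 327 CPM in shNT+OHT and was 1.90-fold lower (log2 fold change -0.93 ± 0.11, SE, edgeR adjusted p = 0.00014). LOXL4, a lysyl oxidase that crosslinks collagen, had 364, 379 and 363 CPM in shNT and 152, 140.4 and 119 CPM in shNT+OHT and was 2.696-fold lower (log2 fold change -1.43 ± 0.12, SE, edgeR adjusted p = 7.9e-06), and its relative LOX was 2.16-fold lower. CCN3 was the one that rose (2.02-fold higher). CCN1 and CCN2, classical YAP targets with many counts, had 6265, 5582 and 5718 CPM in shNT and 6211, 6450.1 and 7578 CPM in shNT+OHT and 4030.5, 3560.5 and 3506 CPM in shNT and 2880.1, 3449 and 3843 CPM in shNT+OHT, and were not called (edgeR adjusted p = 0.13 and 0.44). The count of falls lay between 8 (shNT replicate 1 out) and 13 (shNT+OHT replicate 2 out) with 1 library left out and was 8 without the 2 shallowest. It was 12 with the length trend removed.

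Of 13 collagen genes 5 fell and 0 rose (38.5% and 0%). The falls lay between 3 (shNT replicate 1 out) and 6 (shNT+OHT replicate 1 out) with 1 library out and were 4 with the length trend removed. The median of -0.51 rested on unlike libraries, which lay at -0.21, -0.82 and -0.50, and without shNT+OHT replicate 2 it was -0.19 and without shNT replicate 1, 2 or 3 it was -0.24, -0.31 and -0.27. COL4A1, of basement membranes, had 88.5, 96.3 and 104 CPM in shNT and 46.0, 32.5 and 43.4 CPM in shNT+OHT and was 2.31-fold lower (log2 fold change -1.21 ± 0.17, SE, edgeR adjusted p = 0.00043). COL1A1, whose CPM is given above, was 1.74-fold lower, COL5A1 2.62-fold lower and COL6A3 1.69-fold lower. COL12A1 had 198, 196 and 215 CPM in shNT and 176, 218 and 198 CPM in shNT+OHT, which overlapped. Among 21 integrin, laminin and basement membrane genes 7 fell and 1 rose (33.3% and 4.76%), with a median of -0.46. ITGA3 and ITGB8, integrin chains, were 1.59-fold lower and 1.89-fold lower, and the laminin chain LAMC3 rose from low counts (2.86-fold higher). That count of falls lay between 2 (shNT replicate 3 out) and 10 (shNT+OHT replicate 1 out) and was 6 with the length trend removed.

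Matrix proteases and their inhibitors fell in 9 of 20 (45%) and rose in 2 (10%), with a median of -0.55 and OHT libraries at -0.61, -0.54 and -0.47. With no filter on low counts, where 44 were tested, the median was -0.28. With the length trend removed 9 of the list fell. PLAU is given above. PLAT, the tissue-type plasminogen activator, had 51.4, 55.1 and 52.2 CPM in shNT and 16.04, 23.5 and 26.3 CPM in shNT+OHT and was 2.43-fold lower (log2 fold change -1.28 ± 0.22, SE, edgeR adjusted p = 0.0016). MMP13, a collagenase, was 3.65-fold lower at no more than 24.8 CPM. ADAMTS6 rose and was 1.51-fold higher. Of 18 bone-lineage genes 6 fell and 2 rose (33.3% and 11.1%). RUNX2 and TNFRSF11B, the decoy receptor osteoprotegerin, were 1.62-fold lower and 2.06-fold lower. The mesenchymal repressors moved apart, with SNAI2 at 172, 183 and 173 CPM in shNT and 73.7, 77.9 and 84.6 CPM in shNT+OHT (2.23-fold lower) and SNAI1 at 222, 185 and 156 CPM in shNT and 423, 289.8 and 358 CPM in shNT+OHT (1.90-fold higher).

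**Figure D4:**
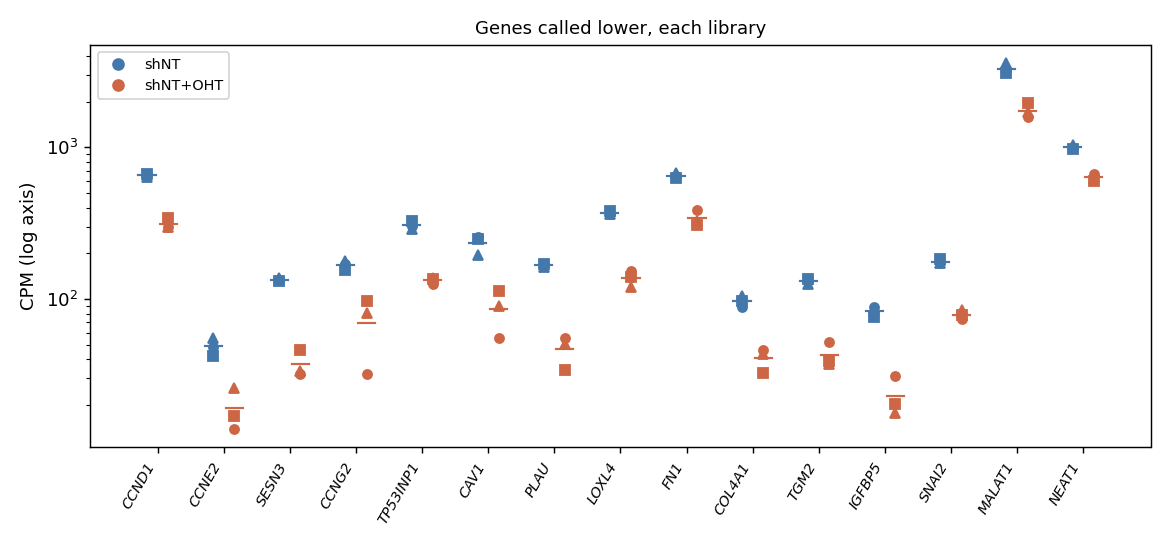
Symbols, colours and lines are as in the plot of MYC and genes called higher, on a log axis of CPM. In each of the 15 genes every shNT+OHT library lay below every shNT library, and the spread was wide in CCNG2 and CAV1, where shNT+OHT replicate 1 was lowest.

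Receptors and ligands fell in part. Of 36 growth factors and receptor kinases 7 fell and 2 rose (19.4% and 5.56%). PDGFRA had 97.7, 99.7 and 116 CPM in shNT and 41.3, 61.7 and 46.5 CPM in shNT+OHT and was 2.14-fold lower, beside PDGFRB above, and VEGFA rose. Of the list 3 fell without the 2 shallowest libraries, and between 3 (shNT replicate 3 out) and 10 (shNT+OHT replicate 1 out) with 1 library out. With the length trend removed 4 of the list fell. In Wnt and Notch signalling 6 of 30 fell (20%), led by WNT5A, DKK3, a Dickkopf-family protein, and MAML2, a Notch coactivator, and 4 rose (13.3%), among them the Frizzled receptors FZD5 and FZD4 (2.13-fold higher and 1.93-fold higher). These rises lay between 2 (shNT replicate 1 out) and 5 (shNT+OHT replicate 1 out) with 1 library out. Of 23 axon guidance and channel genes 9 fell and 1 rose (39.1% and 4.35%), with a median of -0.55, but the falls were 2 without the 2 shallowest libraries and between 4 (shNT replicate 3 out) and 10 (shNT+OHT replicate 1 out) with 1 left out. Among them SEMA3F and PLXNA2, a secreted semaphorin and a plexin receptor, had log2 fold changes of -1.09 and -1.02, and both calls were lost without the 2 shallowest libraries. With the length trend removed 7 of the guidance and channel genes fell and 2 rose.

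In signalling by G proteins and cyclic AMP 4 of 22 genes rose and 2 fell (18.2% and 9.09%), with rises between 2 (shNT replicate 2 out) and 4 (shNT+OHT replicate 2 out) when 1 library was left out. ADCYAP1R1, a receptor for the peptide PACAP, had 5.96, 1.304 and 0.507 CPM in shNT and 44.4, 28.4 and 38.6 CPM in shNT+OHT and was 13.04-fold higher (log2 fold change 3.71 ± 0.47, SE), from very few counts in the controls. PRKAR1A, a regulatory subunit of protein kinase A, had 240.1, 253 and 266 CPM in shNT and 138, 155 and 169 CPM in shNT+OHT and was 1.64-fold lower (log2 fold change -0.71 ± 0.12, SE, edgeR adjusted p = 0.0018). Of 35 lysosomal genes 6 fell and 0 rose (17.1% and 0%), with a median of -0.15, which was -0.21 or -0.084 when shNT+OHT replicate 1 or 2 was dropped. CTSB, the protease cathepsin B, had 284, 299.8 and 333 CPM in shNT and 168, 149 and 144 CPM in shNT+OHT and was 1.98-fold lower (log2 fold change -0.99 ± 0.12, SE, edgeR adjusted p = 0.00014), NPC2, which hands on cholesterol, was 2.29-fold lower and ATP6V1A, of the proton pump, 2.17-fold lower. Leaving out 1 library gave between 3 (shNT replicate 1 out) and 8 (shNT+OHT replicate 1 out) falls, and 4 fell with the length trend removed. Of 25 interferon genes 3 rose and 5 fell (12% and 20%), with rises between 1 (shNT replicate 1 out) and 4 (shNT+OHT replicate 2 out) and falls between 2 (shNT replicate 1 out) and 8 (shNT+OHT replicate 1 out) when 1 library was left out. HLA-B, which presents antigen, was 2.50-fold higher, with reads that other class I genes may share. DTX3L and PARP14, which act in interferon signalling and ADP-ribosylation, were 1.91-fold lower and 1.79-fold lower.

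NF-kB pathway and cytokine genes moved in both directions, with 8 of 24 higher and 4 lower (33.3% and 16.7%). TNFSF15 and TNFRSF11B, given above, were the largest falls, and TRAF1, CXCL8 and NFKBIB the largest rises, at log2 fold changes of 0.92, 0.85 and 0.83. When any 1 library was dropped, the rises lay between 2 (shNT replicate 2 out) and 8 (shNT+OHT replicate 1 out). Without shNT+OHT replicate 1 there were 8 rises and 8 falls, and with the length trend removed 3 rises and 7 falls. The call on TRAF1 was lost without any one of the shNT libraries and that on NFKBIB without shNT replicate 1 or 2. The call on CXCL8 was lost without shNT replicate 2, shNT+OHT replicate 3 or the 2 shallowest libraries, and both NFKBIB and CXCL8 lost theirs with the trend in gene length removed. Of 35 actin cytoskeleton genes that answer serum response factor 6 rose and 2 fell (17.1% and 5.71%), with rises between 3 (shNT replicate 2 out) and 10 (shNT+OHT replicate 2 out) when 1 library was left out. Without shNT+OHT replicate 1 there were 7 rises and 6 falls. TAGLN, the smooth muscle protein transgelin, had 172, 169 and 146 CPM in shNT and 435, 298 and 374 CPM in shNT+OHT and was 2.28-fold higher (log2 fold change 1.19 ± 0.14, SE, edgeR adjusted p = 9.9e-05), and CNN1, a calponin, had 24.8, 26.8 and 24.3 CPM in shNT and 53.4, 35.7 and 62.7 CPM in shNT+OHT and was 2.04-fold higher. Both bind actin, and their rise stood beside the fall of CAV1 on the same list. Of 7 IGF genes IGFBP5 was the one called, and it fell (14.3%, against 8.54% of all genes).

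Of 19 tested nuclear and regulatory non-coding RNAs 3 rose and 2 fell (15.8% and 10.5%), with a median of 0.10 that lay between -0.01 (shNT+OHT replicate 3 out) and 0.13 (shNT replicate 3 out). The rises were RMRP and RPPH1, given above, and SCARNA2, a small RNA of Cajal bodies. SCARNA2 had 27.5, 39.3 and 52.2 CPM in shNT and 84.5, 77.9 and 78.4 CPM in shNT+OHT, with groups that did not overlap (log2 fold change 1.05 ± 0.21, SE, edgeR adjusted p = 0.004). The falls were MALAT1 and NEAT1. MALAT1 had 3182, 3094 and 3593 CPM in shNT and 1578, 1961 and 1696 CPM in shNT+OHT, so the highest OHT library lay well under the lowest control. It was 1.89-fold lower (log2 fold change -0.92 ± 0.10, SE, edgeR adjusted p = 5.4e-05), and it overlaps the antisense RNA TALAM1. NEAT1, the scaffold of paraspeckles, had 992, 977 and 1032 CPM in shNT and 668, 602 and 631 CPM in shNT+OHT and was 1.58-fold lower (log2 fold change -0.66 ± 0.10, SE, edgeR adjusted p = 0.00053). NORAD had 1063, 1048 and 1018 CPM in shNT and 1007, 1367 and 1215 CPM in shNT+OHT and was not called (log2 fold change 0.20 ± 0.11, SE, edgeR adjusted p = 0.24). Over all 242 tested rows that RefSeq types as long non-coding RNA, 27 rose and 22 fell (11.2% and 9.09%) and the median was a log2 fold change of -0.05, against 890 higher and 826 lower of 9540 protein-coding genes (9.33% and 8.66%).

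Of 53 RNA polymerase II, Mediator and elongation genes 8 rose and 5 fell (15.1% and 9.43%), and of 44 chromatin genes 3 rose and 3 fell (6.82% and 6.82%), beside 9.37% and 8.54% of all genes. With 1 library out the rises in the former lay between 4 (shNT replicate 2 out) and 9 (shNT+OHT replicate 1 out) and the falls between 0 (shNT replicate 1 out) and 7 (shNT+OHT replicate 2 out). In the latter the rises lay between 1 (shNT replicate 1 out) and 4 (shNT+OHT replicate 2 out) and the falls between 1 (shNT replicate 1 out) and 6 (shNT+OHT replicate 1 out). With the length trend removed the former had 6 rises and 3 falls and the latter 2 rises and 0 falls. The RNA polymerase II subunits POLR2F and POLR2H were 2.19-fold higher and 1.77-fold higher, while POLR2A, the largest subunit, had 129, 132 and 109 CPM in shNT and 136, 92.5 and 115 CPM in shNT+OHT and was not called (edgeR adjusted p = 0.71). Of 369 zinc-finger genes 35 rose (9.49%) and 15 fell (4.07%), against 9.37% and 8.54% of all genes. ZNF704 and ZNF550 were among those that rose (2.72-fold higher and 2.60-fold higher), and ZNF792 among those that fell (2.20-fold lower). With 1 library out the rises lay between 11 (shNT replicate 2 out) and 61 (shNT+OHT replicate 1 out) and the falls between 4 (shNT replicate 2 out) and 29 (shNT+OHT replicate 2 out). Of 36 proteasome genes 2 rose and 1 fell (5.56% and 2.78%), and the rises lay between 0 (shNT replicate 1 out) and 7 (shNT+OHT replicate 2 out) with 1 library out.

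Both the length of a gene and its number of counts went with the direction of change. Among the quintile of tested genes with the shortest RefSeq span, 60 to 9617 bases, 18.7% rose and 3.76% fell, and the median log2 fold change was 0.20. Both shares shifted at each step along the quintiles, and in the quintile with the longest span, 90599 bases or more, 3.31% rose and 15.7% fell, with a median of -0.23. In the OHT libraries the shortest quintile lay 0.26, 0.10 and 0.23 above the shNT mean, so the shallow replicate 2 showed it least. Genes called higher had a median span of 13424 bases, genes called lower 61703 and genes not called 30715. By number of counts, the lowest quintile of mean CPM had 3.75% higher and 5.60% lower, and the highest quintile 20.4% higher and 9.65% lower. Within the shortest quintile 8.12% of the genes with fewer counts and 29.3% of those with more rose. Within the longest quintile 11.1% and 20.4% fell. More counts also give a test more power, and whether reads were counted over exons or whole genes is not stated, and the part of either in these shares was not tested. With a smooth trend in span removed from each library 1373 genes were called, 706 higher and 667 lower. Genes in the quintile of lowest promoter GC content rose in 8.33% and fell in 10.2%, and those of the highest quintile rose in 8.82% and fell in 10.96%, while in the middle quintile 10.2% rose and 7.05% fell.

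**Figure D5:**
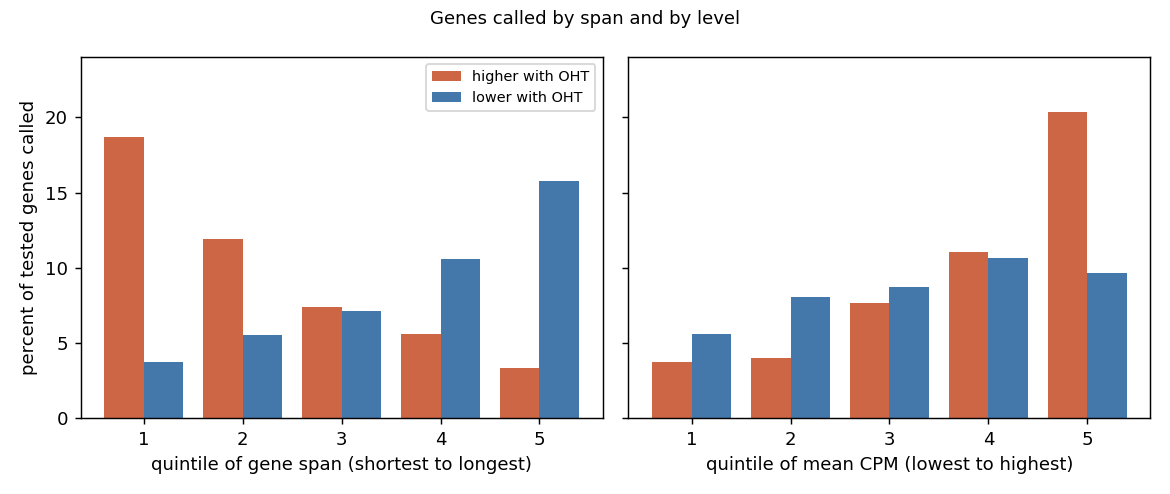
Bars give the percent of tested genes in each quintile called higher (orange) or lower (blue) with OHT, with quintiles of RefSeq gene span on the left and of mean CPM on the right. The share called higher falls from 18.7% to 3.31% along span and rises from 3.75% to 20.4% along mean CPM.

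Genes often used as references included some that rose. Of 14 tested, 4 rose and 0 fell (28.6% and 0%), with a median of 0.24 and rises between 1 (shNT replicate 1 out) and 7 (shNT+OHT replicate 2 out) with 1 library out. With the length trend removed 2 rose and the median was 0.09. ACTB had 2816, 2720.1 and 2533 CPM in shNT and 3604, 2893 and 3562 CPM in shNT+OHT and was 1.25-fold higher and PGK1 was 1.401-fold higher, but both calls were lost without any one shNT library. TFRC, the transferrin receptor and itself a known Myc target, had 293, 278 and 321 CPM in shNT and 419, 569 and 474 CPM in shNT+OHT and was 1.64-fold higher (log2 fold change 0.71 ± 0.13, SE, edgeR adjusted p = 0.0019). GAPDH had 1666, 1414 and 1276 CPM in shNT and 2208, 1532 and 1823 CPM in shNT+OHT, which overlapped by shNT+OHT replicate 2 (log2 fold change 0.35 ± 0.13, SE, edgeR adjusted p = 0.073). SDHA had a log2 fold change of 0.07 ± 0.20 (SE, edgeR adjusted p = 0.84). HPRT1 was not tested, with at most 1.86 CPM in any library.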

How the data were processed

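The authors deposited a table of raw counts per gene, which the submitters' processing notes tie to STAR 2.7.5c, featureCounts 1.4.5-p1 and hg19. Strand and feature settings are not given in the sources used here. The table held 23434 human gene rows, of which 23284 matched a RefSeq symbol (150 did not), and no mouse rows. Libraries were grouped by their labels into shNT and shNT+OHT, 3 each, and held 1251695 to 5227279 counts. The 3 against 3 comparison was fitted on these 6 libraries with edgeR 4.0.16 (R 4.3.3), using TMM scaling, its quasi-likelihood F test, and p-values adjusted by Benjamini-Hochberg over all genes with a mean scaled count above 32. In simulated data with the real means, depths and per-gene dispersions, 154 of 200 genes changed 2-fold were recovered, with 8 false calls, among 9994 genes. The simulation gave both groups the same dispersion, while the real OHT libraries were less alike than the controls. More genes were also called in the real data, so these rates may not hold there. The SE given with a log2 fold change is its absolute value divided by the square root of the F statistic. It was thus derived from the test and was not estimated separately. Per-library list values are medians of log2(CPM + 0.5) minus the shNT mean. Intervals were not computed for shares, and the floor of 3 counts covers counting error only. Gene span, overlaps and promoters came from RefSeq GRCh38.p14, so hg19 positions were not used.

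Genes were named by rule: the 12 largest rises and falls among called genes with non-overlapping groups and a mean of at least 20 CPM, up to 3 called genes of each direction and the 3 highest in CPM from each of 54 lists, MYC, MAX, ESR1, CDK12, reference genes and the 10 genes highest in CPM, described where they bear on the text. Genes named outside it include GREB1, MTRNR2L8, PLK3, GADD45A, the cell type markers, the vault, SNAR and small nucleolar RNAs, SCARNA2, MIR663A and MIR3648-1, chosen after their values were seen. IMP4, POLR1G and SURF6 are named for the motif in their promoters, and TERT and PGR as untested members of their lists. Some genes that the rule names are not reported here. Members and lists were chosen with earlier results of these data known. Alternatives were DESeq2 1.42.0, upper-quartile scaling, no filter, a mean above 100, a replicate block, all 12 libraries in 1 fit, each library left out, thinning to the smallest total, removal of a loess trend in gene span, 10 bins in place of 5, and, chosen after seeing the data, the 2 shallowest libraries left out together.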

Additional observations from a re-analysis of the deposited data

How the results depend on the processing

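Genes called (1789, with 936 higher and 853 lower) numbered 3265, 1740 and 1525 with all 12 libraries in 1 fit, 1111 in all and 449 lower without the 2 shallowest libraries, and 566 lower after thinning. With 1 library left out they ran from 645 to 2530 in all, 372 to 1335 higher and 273 to 1257 lower. Counts under DESeq2, upper-quartile scaling and both other filters stayed within 1.5 times. The labels number replicates alike in both groups, but same-numbered libraries did not deviate together throughout (correlations of 0.10, 0.08 and -0.05), so the numbers were not taken as pairs. With the replicate block 1706 genes were called, 856 higher.

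For 10 of the lists, the medians that moved by more than 1 SD between libraries are given here. For nucleolar factors the median was 0.45 with DESeq2, 0.46 with 12 libraries, 0.46 without the 2 shallowest, 0.45 thinned, 0.38 with the span trend removed and 0.39 to 0.49 with 1 library out. Ribosomal protein genes had 0.51 without the 2 shallowest, 0.19 with the span trend removed and 0.33 to 0.50 with 1 out. The ATF4 and one-carbon genes had 0.60 at a mean above 100, 0.60 without the 2 shallowest and 0.39 to 0.54 with 1 out. Span-trend removal gave 0.26 for mitochondrial import, 0.37 for sterol and fatty acid genes (0.37 to 0.46 with 1 out), 0.56 for Myc-induced genes (0.56 to 0.68 with 1 out) and 0.20 for immediate-early genes (0.39 with no filter, 0.36 to 0.54 with 1 out). Collagens had -0.21 without the 2 shallowest and -0.63 to -0.19 with 1 out. Matricellular genes had -0.43 at a mean above 100, -0.39 without the 2 shallowest, -0.38 thinned and -0.38 to -0.24 with 1 out, and integrins -0.35 with 12 libraries and -0.55 to -0.39 with 1 out. The lowest quintile of mean CPM had -0.11 with upper-quartile scaling, -0.085 thinned and -0.12 with 10 bins in place of 5, and the highest 0.12 with 10 bins. Over 51 lists and all settings, 614 of 765 medians moved by no more than 1 SD between libraries, and 37, in 14 lists, had the other sign. The causes were not tested.

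Of 202 tested genes named in the text 177 were called, 140 passed the threshold in every alternative that tested them, and all 177 called genes kept their sign there. 139 of the 177 were tested in all 15 alternatives. Sign changes were in uncalled genes. Without the 2 shallowest libraries log2 fold changes were 0.018 for CDKN1A, 0.019 for MYC and -0.63 for MTRNR2L8, and with the span trend removed -0.16 for CD68, -0.21 for KRT18, -0.041 for CCN1, 0.11 for COL12A1 and -0.12 for VIM. With 1 library out, ranges were -0.37 to 0.43 for CD68, -0.064 to 0.20 for KRT18, -0.16 to 0.064 for CDKN1A, -0.079 to 0.029 for COL12A1, -0.19 to 1.24 for MIR3648-1, -1.48 to 2.21 for MTRNR2L8, -0.18 to 0.035 for MYC, -0.23 to 0.054 for POLR2A, -0.014 to 0.083 for VIM and -0.014 to 0.41 for WDR74. Depth limits low genes most, since the shallowest library, shNT+OHT replicate 2, held 1251695 counts.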

Other observations

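Some genes that moved lie side by side in the genome, and all were picked after their values were seen. CCNE2 and INTS8, which overlap on chromosome 8, both fell, at log2 fold changes of -1.32 ± 0.25 and -1.37 ± 0.33 (SE, with an edgeR adjusted p = 0.0028 for CCNE2). INTS8, a subunit of the Integrator complex, had 16.3, 13.2 and 21.8 CPM in shNT and 7.40, 7.31 and 5.04 CPM in shNT+OHT, and its call was lost without shNT+OHT replicate 3 and without the 2 shallowest libraries. TP53INP1, farther along the same stretch, overlaps NDUFAF6 as CCNE2 does. On chromosome 3 PARP9, the partner of DTX3L in ubiquitin transfer, had between 27.9 and 39.9 CPM in the 3 shNT libraries and between 10.1 and 20.3 CPM in the 3 shNT+OHT libraries, beside DTX3L at 155, 151 and 131 CPM in shNT and 63.9, 86.1 and 81.2 CPM in shNT+OHT, and its log2 fold change was -1.25 ± 0.28 (SE, edgeR adjusted p = 0.008), a call lost without shNT replicate 1.

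The CPM of a pair of microRNA rows was highest in the shallowest library of each group. MIR663A had 288, 364 and 893 CPM in shNT and 703, 958 and 475 CPM in shNT+OHT and MIR3648-1 had 233, 327 and 1030.1 CPM in shNT and 471, 1124 and 419 CPM in shNT+OHT, and in both the highest control was shNT replicate 3 and the highest OHT library shNT+OHT replicate 2. Neither was called (edgeR adjusted p = 0.33 and 0.63).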
